A study of Danio rerio with 6 samples.

Results

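The lncRNAs described here are the assembled transcripts whose nearest gene, as listed in the deposited table, carries only a clone-derived name. A transcript was taken as clone-named when that gene name started with si:, zgc:, im: or wu:, or was built like the accession of a sequenced clone or contig (BX649490.1 or CABZ01118154.1, for example). Of 8363 assembled lncRNAs, 682 met this rule, at 485 gene names and 629 assembled loci. They were set beside 2522 lncRNAs at genes with any other name, while 5159 had no gene named. ZF4 cells are fibroblasts grown from zebrafish embryos as a permanent line, and the same medium served both groups. Control cells were kept at 28°C and cold acclimated cells at 18°C for 30 days, with 3 samples of each. In such bulk samples, fewer cells of a type and less RNA per cell cannot be told apart. Total RNA was sequenced after removal of ribosomal RNA. The table gives a single mean per group, so the values used here carry no spread between samples, and no difference between the groups was tested here. The authors' own test columns were not used. The table lists assembled lncRNAs only, so the fibroblast identity of the cells could not be checked against marker genes, and all values come from 1 cell line.

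A clone-derived name marks a gene that was predicted or cloned during the zebrafish genome project and has not yet been named after a function or a relative in another species. Names with si: came from clones sequenced at the Sanger Institute, those with zgc: from full-length cDNAs of the Zebrafish Gene Collection, and those with wu: from expressed sequence tags made at Washington University. Genes of this kind are often members of large fish-specific families with many similar copies. In zebrafish the long arm of chromosome 4 is known for such families, among them zinc finger genes and NLR-type immune receptor genes, and for its many repeats and late replication. Long non-coding RNAs (lncRNAs) are longer transcripts with no apparent coding capacity.

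Among the 682 lncRNAs, 378 lay at 276 genes named si:, 173 at 128 genes named by accession, 121 at 79 genes named zgc: and 10 at 2 genes named wu:. No gene named im: occurred. RefSeq (GRCz12tu, used for names only) lists 206 of the 485 genes, 175 under the same name and 31 as a synonym. None of the 128 genes named by accession was matched. Of the matched genes, 200 are listed as protein-coding and 6 as lncRNA genes. Of the 31, RefSeq now lists 28 under a name outside the rule used here, among them the histone, ferritin and small GTPase genes described below. The rest carry another name that meets the rule, such as si:ch73-116f3.3, now zgc:158464. Among the 28, the name sc:d156 is again of the clone type, although the rule does not cover it.

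The clone-named lncRNA with the largest log2 ratio between the groups was MSTRG.2629.2, with 2 exons and 294 nt at si:dkey-23f9.11 on chromosome 11 (GRCz10, 11443260 to 11463864). Its mean was 0.909 FPKM in control and 82.0 FPKM in acclimated cells (FPKM, fragments counted relative to transcript length and to all mapped fragments). This is a ratio of 90.3, or 6.35 on the log2 scale after adding 0.1 FPKM to both means, and all log2 ratios below are given on that scale. RefSeq lists si:dkey-23f9.11 as a protein-coding gene. MSTRG.2629.2 is the only one of the 682 for which the study designed quantitative PCR primers. They are shown as the only sequence at hand for this lncRNA, and the FPKM values were not measured with these primers. The primers of MSTRG.2788.1, a lncRNA of 296 nt at agtrap elsewhere on chromosome 11 (15983862 to 15993045), are printed beside them. Capitals mark the longest run of bases shared by the 2 forward primers and by the 2 reverse primers.
MSTRG.2629.2 forward: gcgtGCCTGTAATCCAAGtta
MSTRG.2788.1 forward: cGCCTGTAATCCAAGctact
MSTRG.2629.2 reverse: agacacccgATCGACATAgt
MSTRG.2788.1 reverse: gtggacacccaATCGACATA
The longest shared run has 14 bases in the forward primers and 9 in the reverse primers. The reverse primers are also alike over further bases on the other side of a single difference. MSTRG.2788.1, which is not clone-named, was at 4.91 FPKM in control and 117 FPKM in acclimated cells. Both lncRNAs were therefore far higher in cold acclimated cells. Transcripts of similar sequence can exchange reads in the quantification. Whether the values belong to the 2 loci or to an RNA with copies at several places was not tested, since no genome sequence was used here, and the ratio of MSTRG.2629.2 is uncertain as a measure of its locus.

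Chromosome 4 held 186 of the 682 clone-named lncRNAs, or 27.3% (95% confidence interval 24.1% to 30.7%, Wilson, counting error over transcripts only). Of the lncRNAs at other named genes, 89 of 2522 lay there (3.53%, 2.88% to 4.32%). Clone-named lncRNAs made up 67.6% of the lncRNAs with a named gene on chromosome 4. On unplaced scaffolds the share was 70.0% (28 of 40), and on chromosome 22 it was 39.0% (41 of 105). The lowest share was 4.04%, on chromosome 18, where 4 lncRNAs were clone-named. The intervals of the clone-named share and of the share at other named genes did not overlap on chromosomes 4 and 22 and on the scaffolds, where the clone-named share was higher, and on chromosomes 2, 6, 11, 18 and 19, where it was lower. The shares of a set are parts of a whole, so the high clone-named share on chromosome 4 lowers the clone-named shares on all other chromosomes. The lower shares were not compared with chromosome 4 left out. Neighbouring loci are not independent, and no test was made across transcripts.

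**Figure D1:**
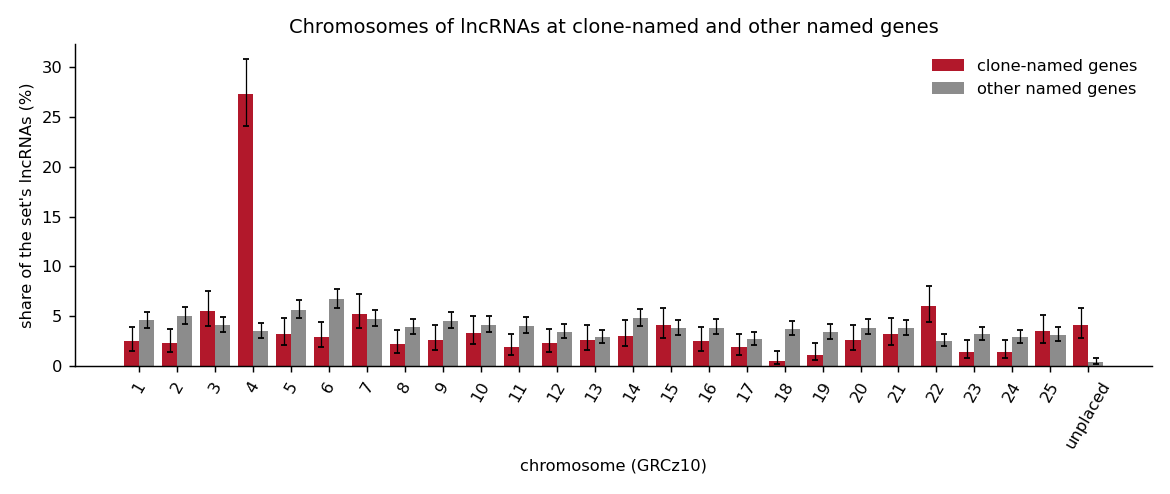
Share of lncRNAs (%) on each chromosome and on unplaced scaffolds, for the 682 lncRNAs at clone-named genes (red) and the 2522 at other named genes (grey), with 95% Wilson intervals as error bars. Chromosome 4 holds 27.3% of the former and 3.53% of the latter.

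Along chromosome 4 the clone-named lncRNAs were unevenly placed. Beyond 25 Mb, a position chosen after the values were seen, lay 178 of the 186 (95.7%), at 116 genes. Of the 89 lncRNAs at other named genes on this chromosome, 57 lay beyond it (64.0%), and of the 299 with no gene named, 222 (74.2%). Only 3 clone-named lncRNAs started in the first 10 Mb, against 9 at other named genes, while 40 started between 60 and 70 Mb, against 8. Among the 186 were 125 with 1 exon (67.2%). Their median was 0.997 FPKM in control and 0.789 FPKM in acclimated cells. The 496 clone-named lncRNAs elsewhere had a median of 1.06 FPKM in the latter, and 52.8% of them had 1 exon.

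Some clone-derived names were given to lncRNAs at places far apart. Of 107 clone-named genes with 2 or more lncRNAs, 4 had them on different sequences or more than 1 Mb apart (3.74%, 1.46% to 9.22%), against 2 of 426 other named genes (0.469%, 0.129% to 1.70%). The intervals overlapped, and the comparison rests on these few genes. The 4 lncRNAs of si:dkey-1f1.3 lay on chromosomes 12, 14 and 18. Those of si:dkey-16p6.1 were spread over 16.8 Mb of chromosome 4, and those of si:dkeyp-44b5.4 over 5.60 Mb of it. Those of wu:fi09b08 lay on chromosome 4 and on the scaffold KN150411.1. Where a name belongs to several copies of a gene, the reads of the copies may be hard to tell apart, and the values of single transcripts at such genes are uncertain.

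The clone-named lncRNAs were shorter than those at other named genes, with a median of 425.5 nt (95% confidence interval 392 to 459, from binomial order statistics over transcripts) against 532 nt (507 to 566). A single exon was listed for 387 of the 682 (56.7%, 53.0% to 60.4%), against 61.0% (59.1% to 62.9%) at other named genes. There were 183 with 2 exons (26.8%) and 112 with 3 or more (16.4%, 13.8% to 19.4%). At other named genes the last share was 12.4% (11.2% to 13.8%). The largest exon number was 9. It was listed for 3 clone-named lncRNAs, of which MSTRG.22887.1 at si:dkeyp-44b5.4 (chromosome 4, 50226161 to 50239383) and MSTRG.22519.3 at BX470200.3 (chromosome 4, 39947438 to 39959192) had the highest means. Their levels in control and cold acclimated cells were close, at 4.52 and 4.80 FPKM for the former and 4.44 and 3.78 FPKM for the latter. The longest were MSTRG.31938.1, of 5908 nt in 2 exons, and MSTRG.31938.2, of 5245 nt in 3 exons, which overlap at CABZ01102124.1 on the scaffold KN150696.1 (20323 to 26791 and 20323 to 26632). The former was at 9.46 and 5.32 FPKM in control and cold acclimated cells, and the latter at 2.98 and 0.940 FPKM.

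A combination of short transcript and wide interval was more frequent at clone-named genes. Transcripts shorter than 300 nt whose exons were spread over more than 10000 nt, limits chosen after the values were seen, made up 40 of the 682 (5.87%, 4.34% to 7.89%). They made up 1.90% (1.44% to 2.51%) at other named genes and 0.795% (0.586% to 1.08%) where no gene is named. Of the 40, 12 lay on chromosome 25. MSTRG.19799.1, for example, has 286 nt in 2 exons that span 79619 nt, and MSTRG.19879.1 has 256 nt that span 52653 nt.

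The levels of most clone-named lncRNAs were low in both groups. The median of the mean over both groups was 1.10 FPKM (1.03 to 1.21), against 0.980 FPKM (0.938 to 1.02) at other named genes. In control cells the medians were 1.20 FPKM and 1.15 FPKM, and their intervals overlapped (1.11 to 1.28 and 1.11 to 1.20). In cold acclimated cells they were 0.961 FPKM (0.881 to 1.07) and 0.747 FPKM (0.706 to 0.795). The 2 sets were therefore close in control cells and further apart in cold acclimated cells. A mean below 1 FPKM was found for 309 of the 682 (45.3%). A mean above 10 FPKM was found for 42 (6.16%, 4.59% to 8.22%), against 80 of 2522 (3.17%, 2.56% to 3.93%) at other named genes.

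**Figure D2:**
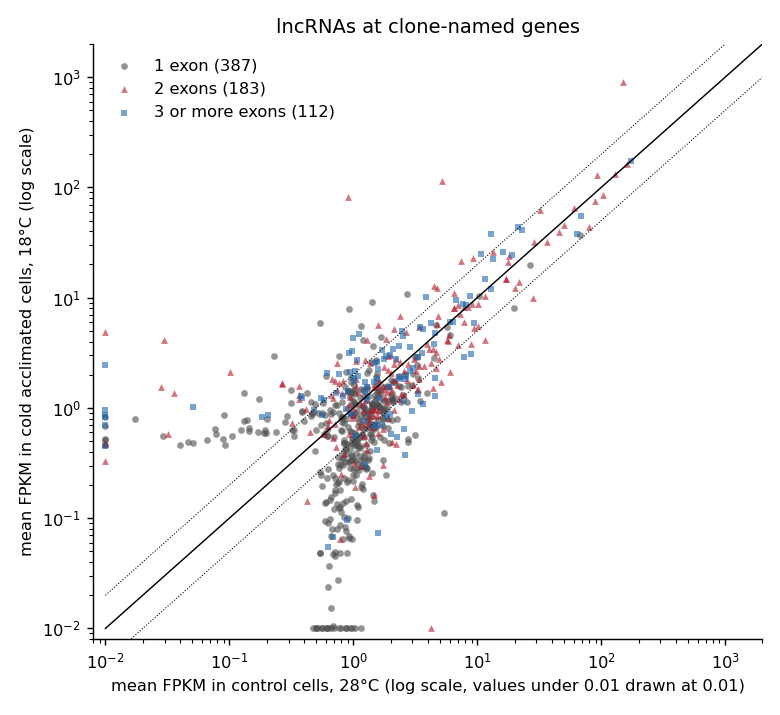
Mean FPKM of each of the 682 clone-named lncRNAs in control cells (x axis) and cold acclimated cells (y axis), on log scales, with values under 0.01 drawn at 0.01. Symbols give the number of exons, the solid line marks equal means and the dotted lines a ratio of 2; 387 lncRNAs have 1 exon, 183 have 2 and 112 have 3 or more.

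For 667 of the 682 the mean exceeded 0.5 FPKM in 1 or both groups, and the cold response was described over these. A transcript that passed through a single group is bound to differ between the groups. Over all 8108 lncRNAs above this limit, 13.3% exceeded a 2-fold ratio upwards in cold acclimated cells and 39.4% downwards, and the median log2 ratio was -0.63. Of the 667 clone-named lncRNAs, 101 (15.1%, 12.6% to 18.1%) were more than 2-fold higher and 198 (29.7%, 26.3% to 33.3%) more than 2-fold lower. At other named genes these shares were 13.7% and 39.1% of 2435. The median log2 ratio was -0.38 (-0.50 to -0.26) for the clone-named lncRNAs and -0.64 (-0.71 to -0.58) for those at other named genes. The clone-named lncRNAs thus lay 0.26 above those at other named genes on the log2 scale, a distance that was 0.16 with 1 transcript per gene and 0.12 with 1 FPKM added in place of 0.1. With 1 FPKM added, 36 clone-named lncRNAs were more than 2-fold higher and 33 more than 2-fold lower, so that 52.2% of the calls were higher in place of 33.8%. The counts also depended on the scaling of the groups. With the means scaled so that the median log2 ratio of all lncRNAs was 0, 182 clone-named lncRNAs were more than 2-fold higher and 101 more than 2-fold lower, so that 64.3% of the calls were higher.

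The cold response of clone-named lncRNAs differed with the number of exons. Of the 378 with 1 exon, 46 (12.2%) were more than 2-fold higher and 150 (39.7%) more than 2-fold lower, with a median log2 ratio of -0.76. Those with 2 exons had 31 of 178 (17.4%) higher and 26 (14.6%) lower, with a median of -0.15. Those with 3 or more had 24 of 111 (21.6%) higher and 22 (19.8%) lower, with a median of 0.32. At other named genes the medians of these classes were -0.86, -0.52 and 0.03. The widest distance between the 2 sets was in the share of lncRNAs with 2 exons that were lower, at 14.6% against 34.7% of 662 at other named genes. With 1 lncRNA kept per gene these shares were 16.3% and 33.2%, and without the chromosome 25 interval described below they were 15.3% and 34.9%.

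**Figure D3:**
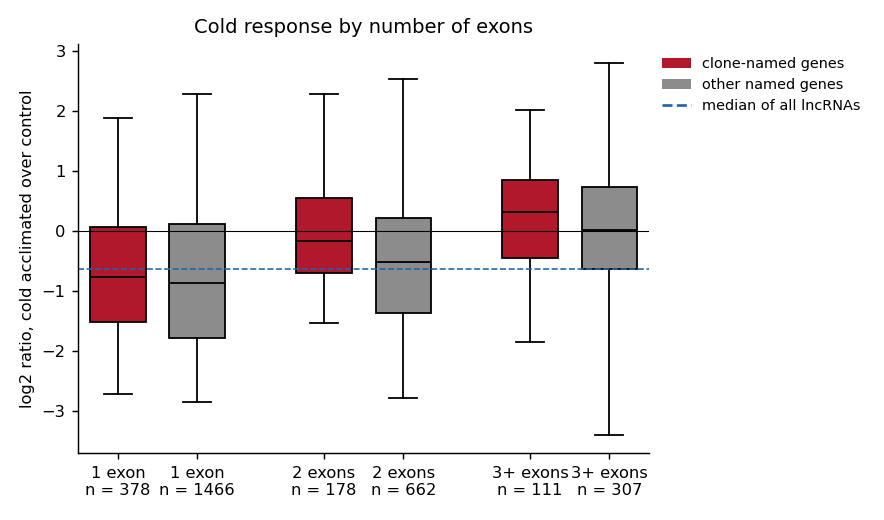
Log2 ratio between cold acclimated and control cells (0.1 FPKM added, positive where higher in the cold) by number of exons, for lncRNAs at clone-named genes (red) and other named genes (grey) above 0.5 FPKM in at least 1 group. Boxes give the quartiles and the median, whiskers the 5th and 95th percentiles; the medians for 2 exons are -0.15 and -0.52, and the dashed line marks the median of all lncRNAs (-0.63).

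The level of the transcripts differed along with these shares. In 5 equal classes of all 8108 lncRNAs by mean FPKM, 180 clone-named lncRNAs fell in the highest class and 108 in the lowest. The classes were formed from the same means as the ratio. A mean below 0.5 FPKM can pass the limit through 1 group only, and the lowest class ended at 0.535 FPKM. In that class, 8 of the 108 clone-named lncRNAs and 62 of 504 at other named genes were within 2-fold. Large ratios at low levels are thus partly set by the limit. From the lowest class to the highest, the median log2 ratio of clone-named lncRNAs was -1.62, -0.90, -0.51, -0.29 and -0.03. At other named genes it was -1.72, -1.07, -0.76, -0.52 and -0.13. The clone-named median was thus the higher one in each class, but the intervals of the medians overlapped in each class. In the lowest class they were -2.07 to -1.30 for clone-named lncRNAs and -1.89 to -1.51 at other named genes. In the highest class they were -0.19 to 0.20 and -0.20 to -0.03. Among lncRNAs with 2 exons the clone-named median was also higher in each class, although the lowest class held 5 clone-named lncRNAs only. No interval was available for these 5, and the intervals overlapped in each higher class. A difference between the medians at matched level was therefore not resolved within single classes. For the share of lncRNAs with 2 exons that were more than 2-fold lower, the intervals did not overlap in the third class. The shares there were 20.0% (9.51% to 37.3%) and 48.4% (39.7% to 57.1%) at other named genes. In each other class the intervals of this share overlapped. When the lncRNAs at other named genes were weighted to the exon and level classes of the clone-named ones, 36.6% were more than 2-fold lower and 13.3% more than 2-fold higher. Weighted to the exon classes and to the share on chromosome 4, 36.6% were lower and 15.0% higher. The share of clone-named lncRNAs that were lower (29.7%) was below both weighted values. The weighted values carry no interval, and exons, level and chromosome 4 were not weighted together. Whether these traits account for the difference was not tested.

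On chromosome 4 and elsewhere, the cold response of clone-named lncRNAs had similar shares of lower transcripts. On chromosome 4, 21 of 178 (11.8%) were more than 2-fold higher and 55 (30.9%) more than 2-fold lower, and elsewhere 80 of 489 (16.4%) and 143 (29.2%). The median log2 ratios were -0.49 (-0.67 to -0.27) and -0.36 (-0.48 to -0.20). Among lncRNAs at other named genes on chromosome 4, 16 of 86 (18.6%) were more than 2-fold higher and 29 (33.7%) lower. Elsewhere these shares were 13.5% and 39.3%. Their medians were -0.52 (-0.70 to -0.32) on chromosome 4 and -0.65 (-0.72 to -0.58) elsewhere. The medians of the 2 sets were thus close on chromosome 4 and further apart elsewhere. Across the other chromosomes with at least 20 clone-named lncRNAs above 0.5 FPKM, the median log2 ratio had its lowest value on chromosome 21 (-0.77) and its highest on chromosome 25 (0.20). At chromosome 22, 1 of 41 was more than 2-fold higher and 13 were lower, with a median of -0.63. Other named genes of this chromosome had 5 of 60 higher and 19 lower, with a similar median of -0.62. By type of name, the median was -0.49 (-0.71 to -0.29) for accessions and -0.38 (-0.55 to -0.24) for si:. It was -0.19 (-0.55 to 0.05) for zgc: and -0.18 (-0.70 to 0.47) for wu:, where 9 of the 10 lncRNAs lay at wu:fi09b08. These intervals overlapped. Among si: names, the 37 lncRNAs at genes from si:ch73 clones had a median of 0.07 (-0.49 to 0.60), with 11 more than 2-fold higher and 6 lower. The 155 from si:dkey clones had a median of -0.44 (-0.69 to -0.17), with 26 higher and 55 lower. These 2 intervals overlapped as well, and the medians for si:ch211 and si:dkeyp were -0.40 and -0.46.

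The abundant clone-named lncRNAs were concentrated at few places. Of the 42 above 10 FPKM, 10 lay on chromosome 25, 9 on chromosome 4 and 4 each on chromosomes 3 and 7 and on unplaced scaffolds. Only 4 had 1 exon. The median log2 ratio of the 42 was 0.03 (-0.19 to 0.39), with 8 (19.0%) more than 2-fold higher and 2 (4.76%) lower. Over all lncRNAs these shares were 13.3% and 39.4%. For other named genes in the highest of the 5 level classes, which started at 1.93 FPKM, they were 14.1% and 16.5%. The median there was -0.13, so a median near 0 was not particular to the abundant clone-named lncRNAs. Clone-named lncRNAs held 10.8% of the FPKM summed over all lncRNAs in control cells (2860 of 26546) and 12.0% after cold acclimation (3736 of 31241). A single transcript, MSTRG.31655.1, made up 24.1% of this last sum. Without it the sums were 2712 FPKM in control cells and 2835 FPKM after cold acclimation. The 31241 FPKM over all lncRNAs in cold acclimated cells included 6404 FPKM from a single lncRNA with no gene named.

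MSTRG.31655.1 is 1 of 9 lncRNAs at wu:fi09b08, a gene that RefSeq lists as protein-coding and that held the most clone-named lncRNAs. It has 764 nt in 2 exons on the scaffold KN150411.1 (5005 to 15073). Its mean was 149 FPKM in control and 902 FPKM in acclimated cells, a log2 ratio of 2.60. Of the other 8 lncRNAs at this gene, none differed by more than 2-fold. MSTRG.31655.2, which starts at the same base and ends at 5704, was at 93.1 and 129 FPKM. On chromosome 4, MSTRG.23101.1 (53849401 to 53881417, 3 exons) was at 174 and 175 FPKM, the highest mean of a clone-named lncRNA in control cells. Its neighbours MSTRG.23104.1, MSTRG.23107.1 and MSTRG.23108.1 were at 50.0, 20.0 and 68.2 FPKM in control cells and at 45.5, 12.2 and 55.4 FPKM in cold acclimated cells. MSTRG.23094.1 at CT583728.4, which overlaps the start of this region (53793841 to 53851960), was at 104 and 85.3 FPKM and was the most abundant lncRNA at a gene named by accession. The difference at wu:fi09b08 was thus seen in 1 transcript of 9, and the transcripts overlap, so that the division of reads among them is uncertain.

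An interval of chromosome 25 between 34 and 36 Mb, chosen after the values were seen, held 17 clone-named lncRNAs at 7 genes, none with a single exon. RefSeq now lists zgc:113983 as h3c13a, zgc:110434 as hist1h2a2 and zgc:173652 as hist1h2a3, which encode core histones. Core histones package DNA into nucleosomes, and their genes lie in clusters of near-identical copies. The messenger RNAs of most such genes end in a stem-loop and lack a poly(A) tail, and a library of total RNA does not select against them. The 17 lncRNAs had lengths from 204 to 315 nt. Their median was 12.9 FPKM in control and 12.1 FPKM in acclimated cells, against 1.20 and 0.961 FPKM for all clone-named lncRNAs. The median of their log2 ratios was 0.20 (0.02 to 0.77). Of the 17, 13 were higher in cold acclimated cells, 4 of them more than 2-fold, and 4 were lower, 1 of them more than 2-fold. Over all lncRNAs 32.0% were higher, and 13.3% were so by more than 2-fold. The interval also held 6 lncRNAs at other named genes, of which 1 was higher and 5 were lower, 1 of them more than 2-fold. The median log2 ratio of these 6 was -0.35 (-2.63 to 0.43).

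The 3 lncRNAs at zgc:113983 were all higher in cold acclimated cells. MSTRG.19799.1 (34539844 to 34619462) was at 5.23 FPKM in control and 114 FPKM in acclimated cells, a ratio of 21.8. MSTRG.19806.1 was at 1.28 and 4.16 FPKM, and MSTRG.19807.1 at 2.36 and 6.82 FPKM. The lncRNA MSTRG.19799.2 of the same assembled locus, at si:ch73-36p18.1, ends at the same base as MSTRG.19799.1 and was at 28.9 and 31.7 FPKM. The large ratio at this locus thus belonged to 1 of its 2 listed transcripts. Within the span of MSTRG.19799.1, MSTRG.19817.1 at si:dkey-108k21.21 (34597597 to 34604597) was lower, at 28.3 and 9.87 FPKM, the only one of the 17 that was more than 2-fold lower.

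The 7 lncRNAs at zgc:110434 differed less. Of these, 6 had log2 ratios between -0.22 and 0.77, MSTRG.19879.1 (35760521 to 35813173) among them with 59.9 and 65.1 FPKM. The exception was MSTRG.19885.1 (35771770 to 35784481, 222 nt), at 0.101 FPKM in control and 2.14 FPKM in acclimated cells, a log2 ratio of 3.48. The most abundant lncRNAs of the interval were MSTRG.19835.1 at si:dkey-261m9.12 (34635402 to 34639562, 287 nt), at 162 and 164 FPKM, and MSTRG.19889.1 at zgc:173652 (35793132 to 35800034, 204 nt), at 128 and 131 FPKM. Both were thus at nearly the same level in the 2 groups. They also had the highest means of all lncRNAs at si: and at zgc: genes. Summed FPKM over the 17 lncRNAs was 528 in control and 648 in acclimated cells. Most of the distance between these sums came from MSTRG.19799.1 alone, at 5.23 and 114 FPKM. Reads of near-identical histone copies can be divided among these transcripts by the quantification.

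**Figure D4:**
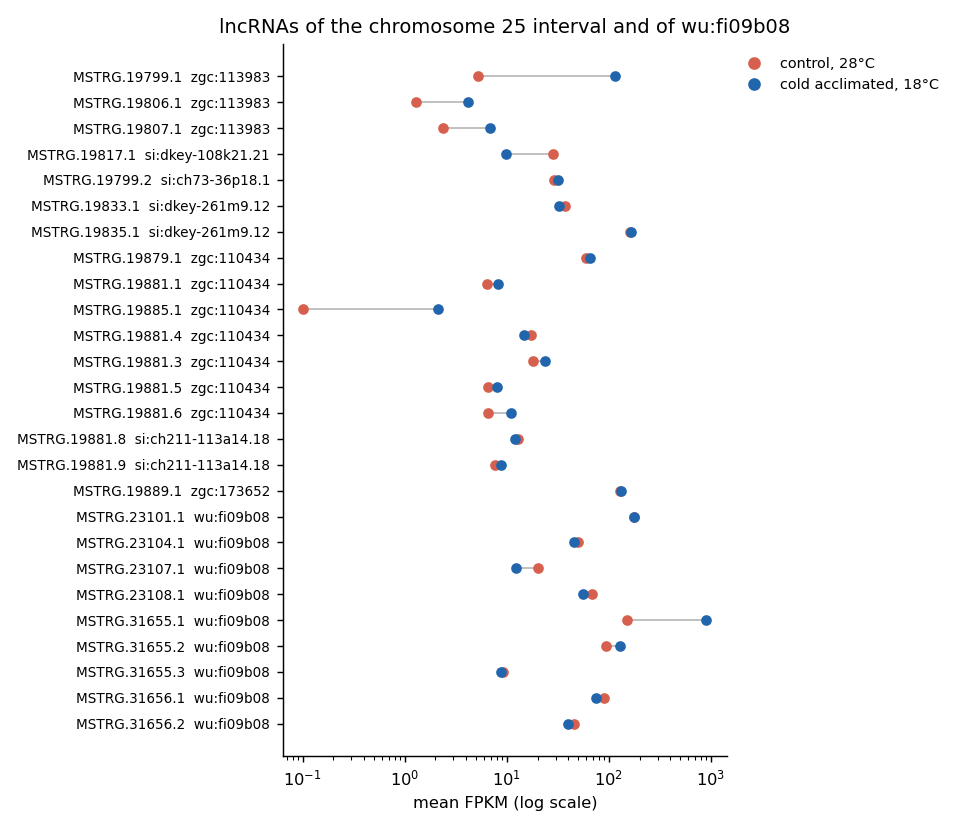
Mean FPKM (log scale) in control cells (red) and cold acclimated cells (blue) of the 17 clone-named lncRNAs between 34 and 36 Mb of chromosome 25, and of the 9 at wu:fi09b08. Most pairs of points nearly coincide, while MSTRG.19799.1 (5.23 and 114 FPKM), MSTRG.19885.1 (0.101 and 2.14 FPKM) and MSTRG.31655.1 (149 and 902 FPKM) are far apart.

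Besides MSTRG.2629.2, MSTRG.19799.1 and MSTRG.19885.1, the largest log2 ratios among the 597 clone-named lncRNAs above 0.1 FPKM in both groups belonged to transcripts with 1 exon. MSTRG.7696.1 at CU929391.2 (chromosome 15, 44258834 to 44259561) was at 0.536 FPKM in control and 5.91 FPKM in acclimated cells, a ratio of 11.0. MSTRG.14294.1 at si:dkey-12h9.6 (chromosome 20, 26130029 to 26130727) was at 0.229 and 2.95 FPKM, a ratio of 12.9. MSTRG.15300.1 at zgc:109965 (chromosome 21, 12982990 to 12983574) was at 0.926 and 7.94 FPKM, a ratio of 8.57. The 3 levels in control cells were thus all below the clone-named median of 1.20 FPKM.

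Among the clone-named lncRNAs above 0.1 FPKM in both groups, the smallest log2 ratio was -4.70, for MSTRG.22666.1 at si:ch211-209p16.1 (chromosome 4, 44091163 to 44091527, 1 exon). This lncRNA was at 5.41 FPKM in control and 0.112 FPKM in acclimated cells. It was the only one of the 6 smallest with a mean above 3 FPKM in control cells. MSTRG.18465.1 lies at zgc:66014, now relch, whose mammalian counterpart takes part in cholesterol transport between endosomes and the Golgi network (chromosome 24, 18532549 to 18532924). It was at 1.47 and 0.144 FPKM. MSTRG.23795.1 at si:dkey-265e15.2 (chromosome 4, 75862468 to 75867654) and MSTRG.18073.1 at si:dkey-65j6.2 (chromosome 23, 43309296 to 43309517) had similar values, at 1.48 and 0.162 FPKM and at 1.45 and 0.164 FPKM. The other two were MSTRG.18807.1 at si:dkey-224b4.1 (chromosome 24, 37354929 to 37356137), at 2.60 and 0.375 FPKM, and MSTRG.11432.1 at si:dkey-266f7.1 (chromosome 19, 7995105 to 7995327), now nuggc.3, at 1.85 and 0.245 FPKM.

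**Figure D5:**
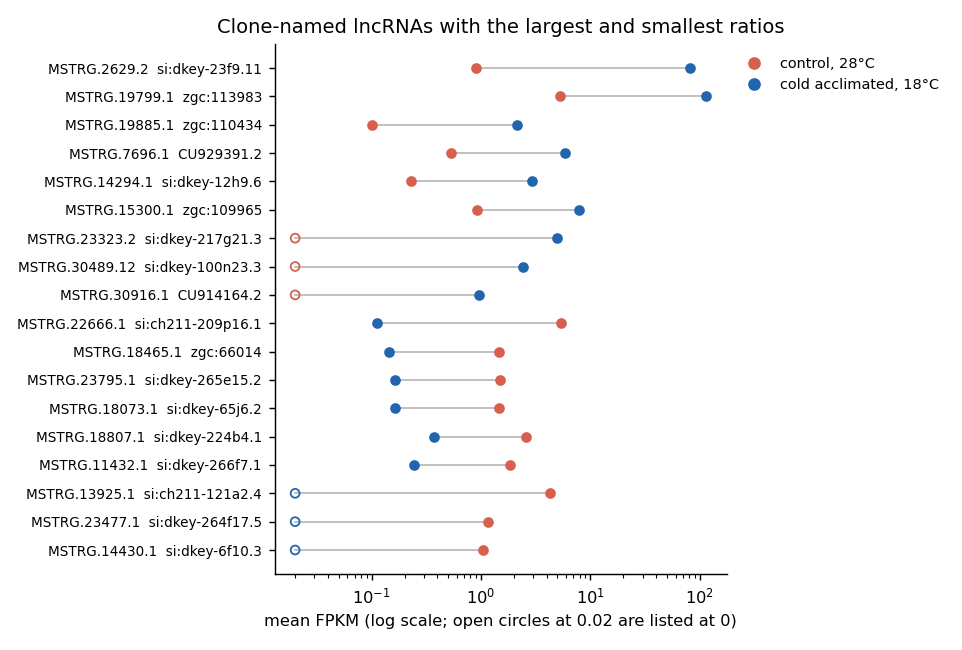
Mean FPKM (log scale) of clone-named lncRNAs in control cells (red) and cold acclimated cells (blue). Shown are the 6 with the largest and the 6 with the smallest log2 ratio among those above 0.1 FPKM in both groups. Also shown are 3 listed at 0 in each group (open circles, drawn at 0.02). MSTRG.2629.2 (0.909 and 82.0 FPKM) and MSTRG.22666.1 (5.41 and 0.112 FPKM) are the widest pairs with a value above 0 in both groups.

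A mean of 0 was listed in control cells for 16 of the 682 lncRNAs (2.35%), and in cold acclimated cells for 19 (2.79%). At other named genes these shares were 3.45% and 5.31%. The 16 had means in cold acclimated cells from 0.330 to 4.92 FPKM, with a median of 0.605 FPKM, and 5 of them had 1 exon. The 19 had means in control cells from 0.476 to 4.23 FPKM, with a median of 0.704 FPKM, and 18 of them had 1 exon. Those at 0 in control cells thus mostly had several exons, and those at 0 in cold acclimated cells nearly always 1. Of the 16 only 10, and of the 19 only 16, exceeded 0.5 FPKM in the other group. Several of the 16 were transcripts of 1 assembled locus at si:ch211-215p11.3, so their exon numbers are not independent. At other named genes, 57 of 87 listed at 0 in control cells and 101 of 134 in cold acclimated cells had 1 exon. The highest level beside a listed 0 in control cells was 4.92 FPKM, for MSTRG.23323.2 at si:dkey-217g21.3 (chromosome 4, 61522407 to 61523460), followed by MSTRG.30489.12 at si:dkey-100n23.3 (chromosome 9, 30434909 to 30437215), at 2.44 FPKM, and MSTRG.30916.1 at CU914164.2 (chromosome 9, 54497756 to 54613929), at 0.965 FPKM. In the other direction MSTRG.13925.1 at si:ch211-121a2.4 (chromosome 20, 7136767 to 7159049, 2 exons) was at 4.23 FPKM in control cells. MSTRG.23477.1 at si:dkey-264f17.5 (chromosome 4, 66849916 to 66850345) and MSTRG.14430.1 at si:dkey-6f10.3 (chromosome 20, 32756244 to 32756460) were at 1.15 and 1.04 FPKM. No fold is given for these lncRNAs, since an FPKM of 0 can also come from the division of reads among transcripts.

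The lncRNAs of a single clone-named gene did not always lie in the same direction. Of the 485 genes, 378 had 1 lncRNA, 85 had 2 or 3 and 22 had 4 or more. Among 105 genes with at least 2 lncRNAs above 0.5 FPKM, all lncRNAs were higher in cold acclimated cells at 10, all were lower at 41 and both directions occurred at 54 (51.4%, 42.0% to 60.8%). Both directions occurred at 177 of 409 other named genes (43.3%, 38.6% to 48.1%), and the intervals overlapped. At 14 of the 105 genes, a count not made for other named genes, some lncRNAs were more than 2-fold higher and others more than 2-fold lower. An example is si:dkey-217g21.3 on chromosome 4, with 7 lncRNAs. MSTRG.23323.1 was at 0.619 and 2.05 FPKM, MSTRG.23325.2 at 5.14 and 1.71 FPKM, and MSTRG.23330.1, the most abundant, at 26.9 and 20.0 FPKM. The 5 lncRNAs of si:dkey-230i18.2 on chromosome 15, named after their values were seen, ranged from a log2 ratio of -2.41 to 2.99. Their levels were low, with a summed FPKM of 3.96 in control and 3.87 in acclimated cells. Large ratios at such levels are partly set by the limit of 0.5 FPKM.

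At other genes the lncRNAs differed in the same direction, which was described for genes with 4 or more. All 6 lncRNAs at si:ch211-181d7.1 on chromosome 15 were lower, 3 of them more than 2-fold, and their summed FPKM was 29.8 in control and 14.8 in acclimated cells. All 4 at si:dkey-16p6.1, si:dkey-84j12.1, zgc:112416 and CABZ01102124.1 and all 5 at CU570894.1 were lower as well, with median log2 ratios of -2.09, -1.13, -0.83, -0.82 and -0.60. At zgc:172271, now sxph (saxiphilin, a toxin-binding relative of transferrin known from frogs), all 4 lncRNAs on chromosome 6 were higher, with log2 ratios from 0.53 to 1.37. Their summed FPKM was 3.19 in control and 6.29 in acclimated cells. At zgc:110434 and at CT990561.1, 6 of 7 and 5 of 6 were higher. Of all lncRNAs above 0.5 FPKM 68.0% were lower, and of the clone-named ones 63.0%. Beside these shares, a gene with only lower lncRNAs is not unusual. Many of the transcripts also share a locus. The 6 at si:ch211-181d7.1 came from 3 assembled loci, the 4 at CABZ01102124.1 from 2 and the 7 at zgc:110434 from 3. Transcripts of 1 gene are not replicates, and none of these patterns was tested.

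At the 28 genes that RefSeq now lists under a name outside the rule, added after their values were seen, lay 46 lncRNAs. Of these, 44 were above 0.5 FPKM. Of these 44, 13 exceeded 2-fold upwards with cold acclimation, at 9 genes, and 6 downwards, at 6 genes. Over all lncRNAs 13.3% exceeded 2-fold upwards and 39.4% downwards. Of the 13, 3 lay at zgc:113983. Several of the 13, such as MSTRG.6576.1, were below 0.5 FPKM in control cells. These passed the limit through cold acclimated cells only and were bound to differ, so the counts are no result about the renamed genes. Besides the histone genes, 3 transcripts on chromosome 3 lay at zgc:198419, now fthl28, a member of the ferritin heavy chain family, whose proteins store iron. MSTRG.20788.1, MSTRG.20788.2 and MSTRG.20788.3 were at 22.8, 21.3 and 13.0 FPKM in control cells and at 41.3, 43.4 and 37.9 FPKM in cold acclimated cells, so that each was higher in the latter. MSTRG.29716.1 at zgc:91909, now rab7b, a small GTPase of endosomes and lysosomes, was at 13.3 and 22.2 FPKM. MSTRG.23826.1 at zgc:85975, now ckap4, a protein of the endoplasmic reticulum membrane, was at 1.75 and 2.33 FPKM. The 3 lncRNAs at zgc:154040, now rarres3, differed in direction, with MSTRG.6576.1 at 0.0282 and 1.54 FPKM and MSTRG.6578.1 at 1.02 and 0.346 FPKM.

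Clone-named lncRNAs also lay at genes that RefSeq itself lists as lncRNA genes, 10 transcripts at 6 genes. The most abundant was MSTRG.26183.1 at si:dkey-10p5.10 (chromosome 6, 22049538 to 22052625), at 7.41 FPKM in control and 21.3 FPKM in acclimated cells. MSTRG.1345.3 and MSTRG.1346.1 lay at si:ch73-46j18.5, now linc-epb41l4a, and were less than 2-fold apart between the groups, at 0.909 and 1.43 FPKM and at 2.62 and 1.84 FPKM. At si:dkey-65j4.2 on chromosome 10, MSTRG.2084.1 was listed at 0 in control and at 0.830 FPKM in acclimated cells. The overlapping MSTRG.2084.2 and MSTRG.2084.3 were lower in cold acclimated cells, at 2.25 and 0.546 FPKM and at 4.56 and 1.29 FPKM. At this gene too, transcripts of the same locus thus differed in direction.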

How the data were processed

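Total RNA of 6 ZF4 samples, 3 control and 3 cold acclimated, was sequenced as stranded, ribosomal RNA-depleted libraries. Per the methods and labels, the authors aligned the reads to GRCz10 with HISAT2 (2.1.0), assembled transcripts with StringTie (1.3.3), filtered them for lncRNAs and quantified them. The deposited FPKM values are scaled to transcript length and to all mapped fragments, with 1 mean per group. No column belongs to a single sample, so library depths are unknown. The authors' 4 columns of log fold change, p-value, false discovery rate and direction were not used.

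From the means, log2 ratios of cold acclimated over control cells were computed with 0.1 FPKM added to both. Transcripts had to exceed 0.5 FPKM in either group, the limit for a call was 2-fold, and no test was made. Adding 0.1 FPKM understates the difference of low transcripts. Intervals are 95% Wilson intervals or binomial order statistics over transcripts. The calculation was tested on simulated data. Gene names were matched by symbol or unambiguous synonym to RefSeq (GRCz12tu); its coordinates were not used. That table holds symbols only, so the planned gene families could not be formed from product descriptions.

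The lncRNAs named are the 6 largest and 6 smallest log2 ratios with more than 0.1 FPKM in both groups, the 3 highest beside a listed 0 in each direction, the 6 highest means, the 2 with most exons, the 2 longest, the highest of each type of name, the 3 genes with most lncRNAs, and those with primers in the study. Genes with 4 or more lncRNAs, renamed genes, RefSeq lncRNA genes and the remaining lncRNAs of the chromosome 25 interval were added after their values were seen. Members, lists and rule were chosen with earlier results of these data known. Alternatives were tried for the pseudocount, filter, threshold, scaling, transcripts per locus or gene, chromosome 4 and the names included. The software was Python 3.11.15 with scipy 1.17.1, pandas 2.3.3, numpy 2.4.6 and, for plots, matplotlib 3.10.9.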

Additional observations from a re-analysis of the deposited data

How the results depend on the processing

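No paired analysis was possible because the table gives 1 mean per group and no value of a single sample, and for the same reason no replicate could be left out. Of 50 alternative values, 38 lay within the 95% interval of the main value, or within 1.5 times of a main count, 11 lay outside and 1 reversed. With a pseudocount of 1, 36 clone-named lncRNAs were more than 2-fold higher and 33 lower in place of 101 and 198, the median log2 ratio was -0.25, and the distance from the lncRNAs at other named genes was 0.12 in place of 0.26. With a filter of 1 FPKM the counts were 66 and 112, and with a threshold of 3-fold they were 55 and 106. After scaling that set the median of all lncRNAs to 0 on the log2 scale, the counts were 182 and 101 and the median of clone-named lncRNAs was 0.26, so that its direction reversed. This scaling removes a constant and cannot alter the distance from the lncRNAs at other named genes. With 1 transcript per locus, 62.2% of clone-named lncRNAs had 1 exon in place of 56.7%. The distance was positive under each of its 11 alternatives, from 0.12 to 0.32. With 1 transcript per gene it was 0.16, within the main interval but over 1.5 times smaller. The share on chromosome 4 stayed between 24.9% and 28.4%. Alternatives with 1 transcript per gene, without bare Ensembl identifiers (9 lncRNAs) and without names marked 1 of many (89 lncRNAs) were chosen after seeing the data. From the group means used here, a single sample with a high value cannot be told apart from a difference shared by the samples of a group.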
